A study of Mus musculus with 9 samples.

Results

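Open chromatin at 8 genes of mast cells, basophils and eosinophils was examined in 9 ATAC-seq libraries of mouse LSK cells, the lineage-negative, Sca-1-positive, Kit-positive cells that include blood stem cells and their first progeny. The genes were Mitf, Cpa3, Ms4a2, Fcer1a, Hdc, Prg2, Epx and Mcpt8. A peak was counted for one of them when its summit lay inside the gene in GRCm38, or within 50 kb of it with no other protein-coding gene nearer. Peaks that shared at least 1 base were joined across libraries, which gave 31 regions at the 8 genes, of 76253 regions in all. The genes were selected on their role in these cells and on measured values of these lists, few peaks present in Bcat_KO, so presence, peak strength and rank are descriptions here and carry no test.

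The libraries came from WT cells (2 libraries), cells without β-catenin (Bcat_KO, 2), without Hoxa9 (HOXA9_KO, 2), without Prmt1 (PRMT1_KO, 2), and without both β-catenin and Hoxa9 (dKO, 1). Groups with 2 libraries are called paired below, which does not mean that libraries are matched across groups. Sample titles say KO where the genotype tags say knockdown, and the wording of the titles is kept. The series design text gives primary transplanted Prmt1KO mice as the source of LSK cells, and the origin of the other groups, how each gene was removed, the age of the animals, and whether replicates are separate animals are not given in the sources used here. The study asks what β-catenin, the effector of canonical Wnt signalling, the homeobox factor Hoxa9 and the arginine methyltransferase Prmt1 do in stem cells.

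Mast cells, basophils and eosinophils descend from haematopoietic progenitors and carry granules loaded with proteases, cationic proteins and histamine. Mast cells and basophils bear the high-affinity receptor for immunoglobulin E, whose α chain is encoded by Fcer1a and whose β chain is encoded by Ms4a2. Mitf is a basic helix-loop-helix factor that mast cells need and that acts with Gata2 at granule genes, Cpa3 encodes the mast cell carboxypeptidase, Hdc the enzyme that makes histamine, and Mcpt8 a basophil protease. Prg2 and Epx encode the major basic protein and the peroxidase of eosinophil granules.

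The sequence around 5 start sites is shown to set starts with and without peaks side by side: the upstream start of Mitf, open in every library, a start inside Mitf and those of Cpa3 and Hdc, each with peaks in some libraries, and that of Ms4a2, without a peak. Each window runs from 250 bases before the start to 50 bases after it, in the direction of the gene, from RefSeq on GRCm38.p6. Capitals mark AGATAA or TGATAA (the GATA motif), CACGTG or CATGTG (E-boxes that Mitf can bind, a part of all CANNTG E-boxes) and TGTGGT (the Runx motif), on both strands.
Mitf upstream start (chr6:97806808-97807107, plus strand): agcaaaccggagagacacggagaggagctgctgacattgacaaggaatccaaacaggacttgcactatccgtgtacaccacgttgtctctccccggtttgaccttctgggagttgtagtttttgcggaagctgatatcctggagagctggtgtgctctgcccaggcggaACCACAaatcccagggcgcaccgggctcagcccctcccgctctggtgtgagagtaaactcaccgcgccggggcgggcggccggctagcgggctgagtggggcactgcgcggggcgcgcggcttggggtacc
Mitf inner start (chr6:97929567-97929866, plus strand): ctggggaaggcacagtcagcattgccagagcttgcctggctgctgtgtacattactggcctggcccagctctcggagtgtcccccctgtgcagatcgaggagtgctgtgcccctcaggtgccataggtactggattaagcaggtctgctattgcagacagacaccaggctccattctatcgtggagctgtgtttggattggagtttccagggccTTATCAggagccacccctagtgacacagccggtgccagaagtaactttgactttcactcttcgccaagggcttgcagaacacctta
Cpa3 start (chr3:20242132-20242431, minus strand): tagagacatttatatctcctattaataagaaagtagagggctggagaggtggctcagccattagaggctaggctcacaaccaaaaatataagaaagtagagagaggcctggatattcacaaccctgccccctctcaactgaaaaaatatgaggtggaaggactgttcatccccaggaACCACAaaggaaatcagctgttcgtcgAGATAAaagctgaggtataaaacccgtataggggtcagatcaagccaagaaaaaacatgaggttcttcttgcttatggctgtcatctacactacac
Hdc start (chr2:126618629-126618928, minus strand): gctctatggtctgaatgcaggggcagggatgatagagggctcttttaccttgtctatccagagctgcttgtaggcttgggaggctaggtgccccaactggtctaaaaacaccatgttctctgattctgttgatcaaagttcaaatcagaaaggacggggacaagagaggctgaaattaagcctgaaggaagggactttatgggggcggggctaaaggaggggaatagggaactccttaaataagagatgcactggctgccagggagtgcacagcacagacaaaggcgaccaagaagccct
Ms4a2 start (chr19:11623670-11623969, minus strand): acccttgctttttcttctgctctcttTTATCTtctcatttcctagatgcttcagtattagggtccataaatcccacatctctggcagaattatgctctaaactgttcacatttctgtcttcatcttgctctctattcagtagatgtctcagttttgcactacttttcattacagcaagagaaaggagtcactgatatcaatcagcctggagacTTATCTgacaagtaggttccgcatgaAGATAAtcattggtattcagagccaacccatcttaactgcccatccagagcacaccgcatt

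RefSeq listed 9 such windows for 7 of the 8 genes, 3 of them at Mitf, and Prg2 was not listed. A GATA motif stood in 5 of the 9 windows, against 18.6% of all 32851 windows, and a Runx motif in 4 of the 9, against 16.8%. Ms4a2 held 3 GATA motifs and Cpa3, Fcer1a and both later Mitf windows 1 each. An E-box of the Mitf type was found in 1 of the 9 windows, that of Fcer1a, against 20.4% of all. CANNTG stood in 6 of the 9 (72.3% of all), TTGCNNAA (C/EBP) in 3 (10.8%), CTTTGAA or CTTTGAT (Tcf/Lef) in 2 (8.65%), and AGGAAGT (PU.1; 9.35%), TGATTTA (a Hoxa9 type; 2.97%) and CAGGAAG (ETS; 13.3%) in none. These are matches of letters, not sites shown to be bound, and CAGGAAG and AGGAAGT can overlap each other.

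The start-site windows of these genes were poor in CpG, apart from the upstream and the third listed window of Mitf. The ratio of observed to expected CpG was 0.213 at Cpa3, 0.169 at Ms4a2, 0.07 at Fcer1a, 0.165 at Hdc, 0.236 at Epx, 0.215 at the inner Mitf start shown above and 0 at Mcpt8, with a median of 0.384 over all windows. At the upstream Mitf start it was 0.752, with 22 CpG in the window. Of all windows with a ratio under 0.2, 7.8% had a peak in any of the 8 libraries of the groups with 2 libraries, and 1.69% had a peak among the strongest of all 8. For ratios from 0.2 to 0.4, where Cpa3, Epx and the inner Mitf start fall, these shares were 20.3% and 6.61%. For ratios from 0.6 to 0.8 they were 84.1% and 59.6%. Of the 9 windows, 5 (55.6%) had a peak in any of the 8 libraries, against 45.8% of all windows. A peak among the strongest of all 8 was found in 1 of the 9 (11.1%), against 30.3%. The upstream Mitf window had a peak in 8 of 8 libraries, while the third Mitf window, with a ratio of 0.673, had a peak in 0.

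**Figure D1:**
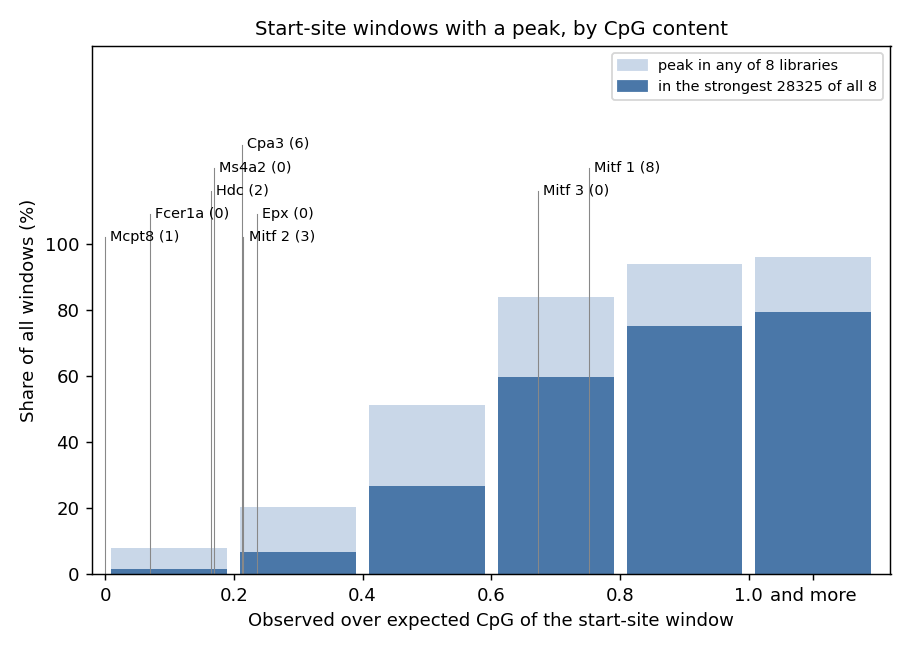
Share of all RefSeq start-site windows (%, vertical axis) with a peak, by the ratio of observed to expected CpG (horizontal axis, the last bar holding ratios of 1.0 and more). Pale bars count a peak in any of the 8 paired libraries and dark bars a peak among the strongest 28325 of all 8. Grey lines mark the windows of 7 of the 8 genes with the number of libraries with a peak in brackets: 8 at the upstream Mitf start (Mitf 1), 6 at Cpa3 and 0 at Ms4a2, Fcer1a, Epx and Mitf 3.

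The lists differ in length and depth. They held 28325 to 45460 peaks in the 8 libraries of the paired groups and 10639 in the dKO. The most common background at a summit, recovered from the deposited fold and p, was 1.35 and 1.03 reads in WT. It was 1.2 to 1.6 in the other paired libraries and 0.46 in the dKO. Divided by the length of the shortest peak of each list, it gave background reads per kb, the measure of depth used here. These were 7.38 and 6.28 in WT, 8.3 to 11.2 in the other paired libraries, and 2.41 in the dKO. For lists of equal length, the 28325 peaks with the highest −log10 p were taken from each of the 8, called the shortened lists below. All 6 libraries of the single mutants had 12 to 16 peaks on chromosome Y below 90 Mb and both WT libraries had 0, so a possible difference in sex cannot be told apart from genotype in comparisons with WT, although the 8 genes are autosomal. Among markers, all 6 of LSK cells had a region in all 8 shortened lists. For 5 of them (Kit, Cd34, Flt3, Meis1, Mecom), peaks with a summit assigned to the gene were in all 8 paired libraries. For the other, Ly6a, such peaks were in 3 libraries, none of them WT, although its shared region had a peak in both WT libraries. Of other lineages, the 3 of T cells and the 3 of mature mast cells (Cma1, Mcpt4, Tpsb2) had no peak in any list. In each of the sets for B cells (Pax5), granulocytes (Ltf) and mature eosinophils (Siglecf), 1 of 3 genes had a region in all 8. For 2 erythroid marker genes, the regions in the shortened lists of both libraries numbered 1 each in WT, HOXA9_KO and PRMT1_KO and 0 in Bcat_KO. Of all regions, 45.3% to 49.3% were in both libraries of a group. The counted region lay at Hbb-bt, where the highest fold was 4.67 and 5.15 in WT and 6.95 and 8.19 in Bcat_KO. It was 5.99 and 7.56 in HOXA9_KO and 7.11 and 7.69 in PRMT1_KO, so the 0 does not mean weaker peaks in Bcat_KO. The part of erythroid cells in the results was not tested.

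Across the 8 genes, the upstream start of Mitf was strongly open, and the other regions were mostly weak. The 107 peaks at the 8 genes fell into 31 regions, 22 inside a gene, 6 outside and 3 at either end of a gene. Those 3 were at the upstream start of Mitf, the start of Cpa3 and 1 end of Prg2. Of the 31 regions, 13 (41.9%) had a peak in 1 library, against 33.0% of all 76253 regions, and the Mitf start was the only one in all 9. Of the 16 regions in the shortened lists, the Mitf start was the only one in all 8, against 33.2% of all 47984 regions in those lists. Outside the Mitf start, the 98 peaks rested on 6 to 25 reads at the summit (median 11) and reached 3.09 to 10.0 times the local background (median 4.71), with medians of 17 reads and 6.17 times over all peaks of the 8 lists. After shortening, 16 of the 31 regions remained in at least 1 of the 8 lists, and the other 15 appear only as weak peaks. Of all 21896 protein-coding genes, 51.1% had a region in all 8 shortened lists, and of the 8 genes Mitf alone had one. The farthest summit lay 17.6 kb from its gene.

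**Figure D2:**
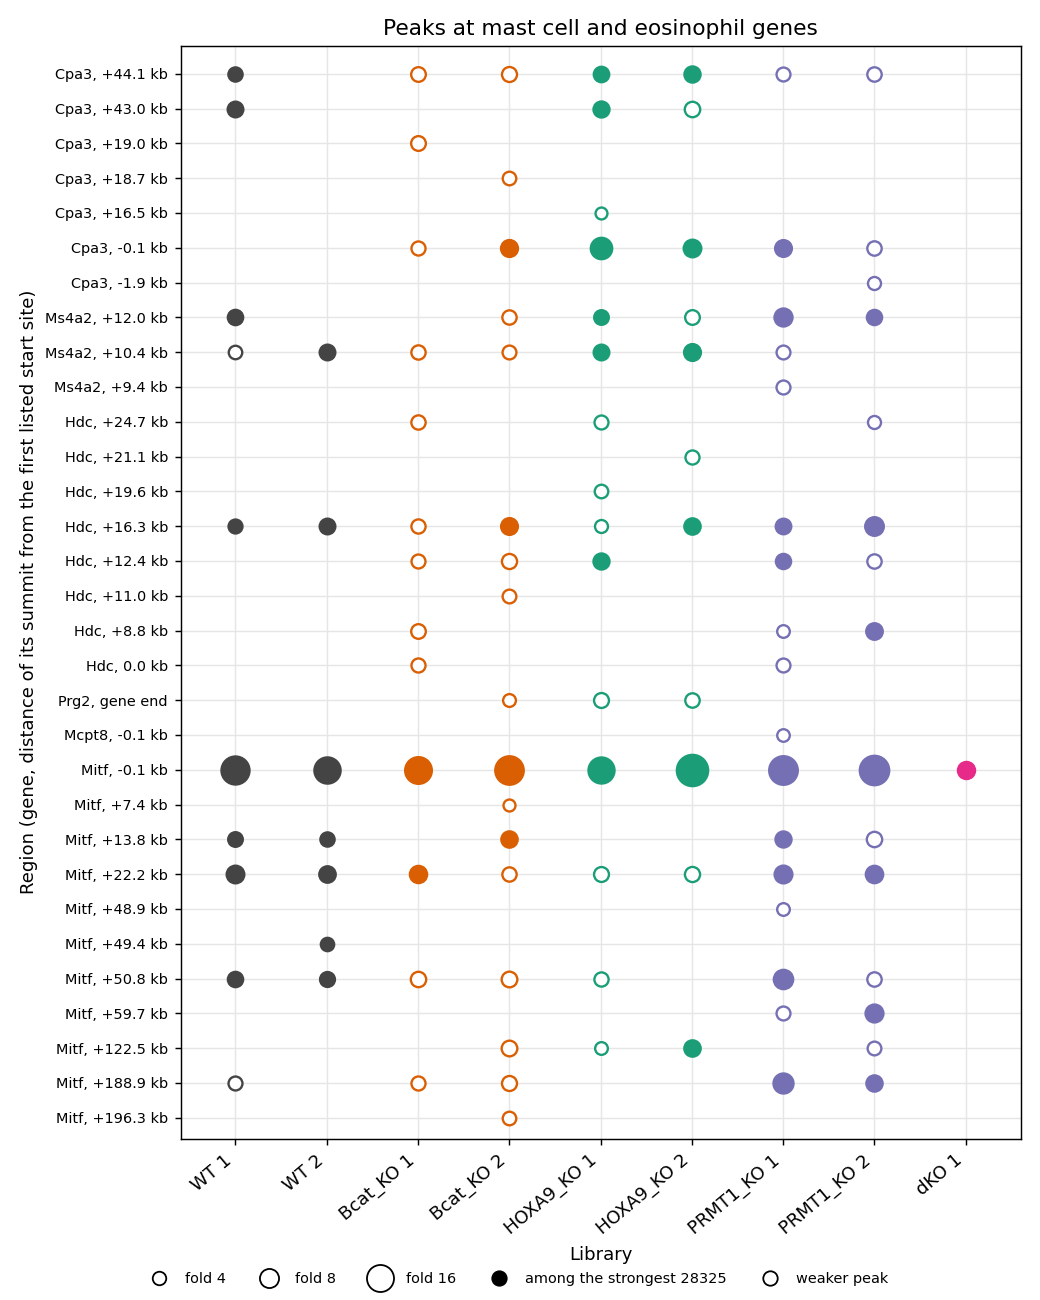
Every region at the 8 genes (rows, named by the distance of its summit in kb from the first listed start site, positive downstream) in the 9 libraries (columns). Circle area is proportional to the fold over local background, filled circles are peaks among the strongest 28325 of a list and open circles are weaker peaks. The row of the upstream Mitf start holds a large filled circle in all 8 paired libraries, and most other circles are small or open.

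Mitf (chr6:97807002-98021360, plus strand), the transcription factor of the group, had 11 regions, the most of the 8 genes in a gene of 214 kb. The region at the upstream start (chr6:97806616-97807542) reached 17.2 and 15.0 times background in WT. Bcat_KO had 15.6 and 17.7 there, HOXA9_KO 14.9 and 21.4, and PRMT1_KO 17.9 and 18.9. The WT mean was 16.1 ± 1.56, that of Bcat_KO 16.6 ± 1.52, that of HOXA9_KO 18.1 ± 4.64 and that of PRMT1_KO 18.4 ± 0.73 (SD, n = 2 each), and PRMT1_KO alone lay above both WT values, inside the range of HOXA9_KO. It stood within the strongest 6.25% of every paired list, from rank 746 in HOXA9_KO replicate 2 to rank 2491 in HOXA9_KO replicate 1. The peaks rested on 60 to 100 reads. In the dKO the same start had a peak of 6.39 times background on 9 reads, at rank 3753 of 10639, the only peak of that library at any of the 8 genes.

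The regions inside Mitf were weak and varied between groups. At 13.8 kb from the upstream start (chr6:97820548-97821002) the fold was 4.68 and 4.43 in WT, 5.81 in Bcat_KO replicate 2 and 5.64 and 5.16 in PRMT1_KO. Bcat_KO replicate 1 and both HOXA9_KO libraries had no peak there. At 22.2 kb (chr6:97828980-97829724) it was 6.81 and 5.91 in WT and 6.91 and 6.59 in PRMT1_KO. Bcat_KO had 6.48 and 4.47 and HOXA9_KO 4.86 and 5.01, so both HOXA9_KO and Bcat_KO lay below PRMT1_KO, HOXA9_KO lay below WT, and Bcat_KO overlapped with WT and HOXA9_KO. At 50.8 kb (chr6:97857743-97858133) WT had 5.11 and 4.86, Bcat_KO 5.18 and 5.37, PRMT1_KO 8.18 and 4.53, and HOXA9_KO a peak of 4.41 in replicate 1 only. The Bcat_KO folds at that site were above those of WT, and its peaks ranked 28588 and 29868, just outside the shortened list.

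Near the inner starts of Mitf, the region at 122 kb (chr6:97929273-97929963), which overlaps the inner start shown above, had peaks of 5.37 in Bcat_KO replicate 2, 3.53 and 5.84 in HOXA9_KO and 4.12 in PRMT1_KO replicate 2. Both WT libraries had none, and 1 of these peaks, in HOXA9_KO replicate 2, was among the strongest 28325. At 189 kb (chr6:97995674-97996148) the fold was 8.78 and 5.77 in PRMT1_KO, on 24 and 13 reads, 4.32 and 4.92 in Bcat_KO and 4.25 in WT replicate 1. PRMT1_KO was above the other groups, and HOXA9_KO and WT replicate 2 had no peak. A region at 59.7 kb had peaks in PRMT1_KO alone, at 4.22 and 7.0 times background, of which the second was in the shortened list. The other 4 regions of Mitf had a peak in 1 library each, between 3.13 and 4.02 times background.

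**Figure D3:**
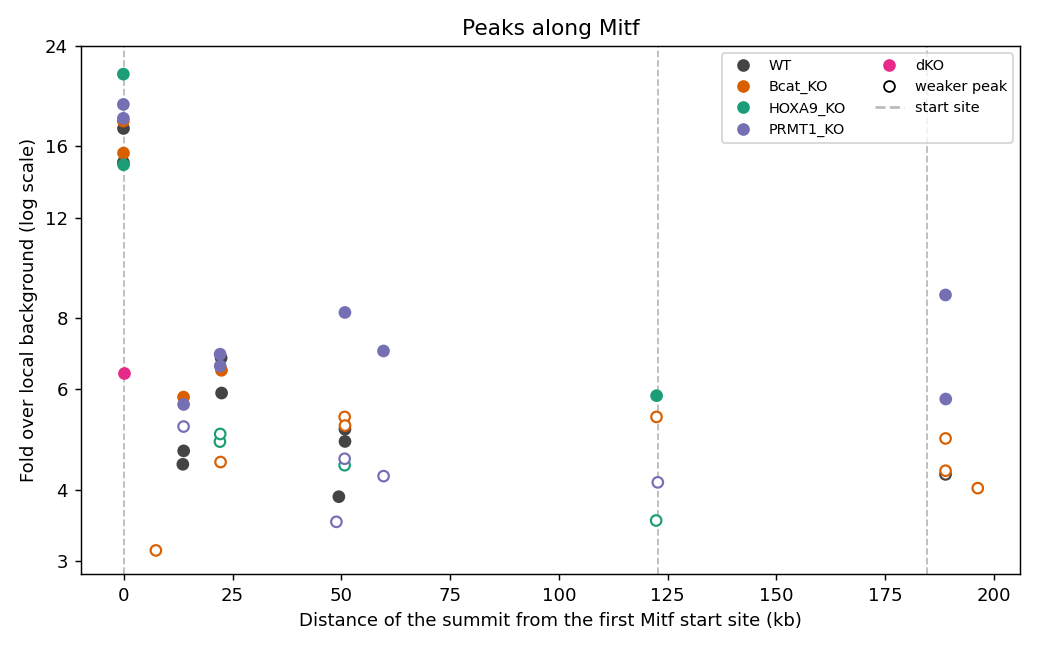
Peaks along Mitf, by the distance of the summit from the upstream start site in kb (horizontal axis) and the fold over local background (vertical axis, log scale), in colour by group, open where outside the strongest 28325. Dashed lines are the 3 listed start sites. Peaks at the upstream start lie between 14.9 and 21.4 in the 8 paired libraries and at 6.39 in the dKO, and those elsewhere in the gene stay below 9.

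At Cpa3 (chr3:20215616-20242209, minus strand), the carboxypeptidase gene, the start site had a peak in all 6 libraries of the single mutants and none in WT or the dKO. The region (chr3:20242132-20242459) covers the start shown above with its GATA and Runx motifs. It reached 10.0 and 6.78 times background in HOXA9_KO, on 25 and 15 reads, 4.32 and 6.26 in Bcat_KO and 6.14 and 4.53 in PRMT1_KO. Both HOXA9_KO values lay above those of the other mutants, and the mean of HOXA9_KO was 8.39 ± 2.28 (SD, n = 2). By background reads per kb, WT and the dKO were also shallower than the single mutants, and the part of depth in this was not tested. Beyond the other end of the gene, a region 17.5 kb away (chr3:20197870-20198828) had a peak in 7 of the 8 paired libraries, at 5.22 and 5.71 in HOXA9_KO, 4.70 and 4.92 in Bcat_KO, 4.22 and 4.53 in PRMT1_KO, and 4.42 in WT replicate 1. Both HOXA9_KO values were again the highest. A region next to it (chr3:20198885-20199474) had peaks of 5.61 and 5.22 in HOXA9_KO and 5.37 in WT replicate 1 only. The remaining 4 regions of Cpa3 had a peak in 1 library each.

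Of the receptor chains of immunoglobulin E, Ms4a2 had weak regions beyond its end and Fcer1a had none. Ms4a2 (chr19:11615517-11623790, minus strand) had 3 regions, 1.2 to 3.8 kb past the end of the gene, and no peak over its start in any library. The region 3.8 kb away (chr19:11611584-11611920) reached 7.11 and 5.07 in PRMT1_KO, 4.69 and 4.71 in HOXA9_KO, 4.48 in Bcat_KO replicate 2 and 5.12 in WT replicate 1. PRMT1_KO overlapped with WT there. The region 2.2 kb away (chr19:11613115-11613696) reached 5.37 and 6.20 in HOXA9_KO, 3.98 and 5.36 in WT, 4.46 and 4.18 in Bcat_KO and 4.19 in PRMT1_KO replicate 1. The lower of the HOXA9_KO values was close to that of WT replicate 2. Fcer1a (chr1:173221269-173227232) stands among olfactory receptor genes, and the nearest peak of any list lay 24.9 kb away, in WT replicate 1 at 3.40 times background, nearer to Olfr218.

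Hdc (chr2:126593659-126624025, minus strand), the gene of histamine synthesis, had 8 regions, all inside the gene. The one found in all 8 paired libraries lay 16.3 kb from the start (chr2:126602028-126602687), at 5.29 and 7.59 in PRMT1_KO, 3.67 and 5.82 in HOXA9_KO, 4.40 and 6.14 in Bcat_KO and 4.25 and 5.36 in WT. The ranges of the 4 groups overlapped. At 12.4 kb (chr2:126606073-126606459), peaks of 4.25 and 5.0 in Bcat_KO, 5.63 in HOXA9_KO replicate 1 and 5.05 and 4.50 in PRMT1_KO were found, and none in WT. The start itself (chr2:126618648-126619009) had weak peaks of 4.32 in Bcat_KO replicate 1 and 4.22 in PRMT1_KO replicate 1, on 9 and 10 reads, both outside the shortened lists.

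The granule genes Prg2, Epx and Mcpt8 were almost without peaks. Prg2 (chr2:84980461-84983632), the major basic protein gene, has no listed start site, so its start and far end were not told apart. It had 1 region at the end with the lower coordinate (chr2:84980239-84980558), with 4.86 and 4.55 times background in HOXA9_KO and 3.58 in Bcat_KO replicate 2. None of these peaks was among the strongest 28325, the nearest being that of HOXA9_KO replicate 1 at rank 28427, while the Ms4a2 peak of PRMT1_KO replicate 2 at rank 28279 was the last inside. Mcpt8 (chr14:56082163-56085499) had 1 peak, at its start in PRMT1_KO replicate 1, of 3.46 times background on 8 reads. Epx (chr11:87863997-87875536) had none, and the nearest peak, 10.8 kb away, was nearer to Mks1. Of all protein-coding genes 21.5% had no peak in any list, and of the 8 genes 2 had none. Mcpt8 and the Ms4a genes have near copies beside them, so reads that map to several places could be lost or shared there.

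Bcat_KO had the fewest of these regions among strong peaks, which is part of how the genes were chosen. In the shortened lists the number of regions was 2 and 4 in Bcat_KO, 8 and 7 in WT, 7 and 6 in HOXA9_KO and 9 and 7 in PRMT1_KO. The lists as deposited gave the reverse against WT, with 13 and 17 regions in Bcat_KO, 10 and 7 in WT, 15 and 11 in HOXA9_KO and 17 and 15 in PRMT1_KO. Bcat_KO thus had peaks at these genes that were weak for its lists: 2 of 13 and 4 of 17 were among the strongest 28325, where 65.5% and 62.3% of all its peaks were. HOXA9_KO had 7 of 15 and 6 of 12 (all peaks, 71.0% and 68.5%), PRMT1_KO 9 of 17 and 7 of 15 (63.6% and 71.0%), and WT replicate 1 had 8 of 10 (79.6%), while the list of WT replicate 2 sets the length. The median fold of the peaks at these genes was 4.46 and 4.92 in Bcat_KO and 4.89 and 5.36 in WT, so the folds overlapped.

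**Figure D4:**
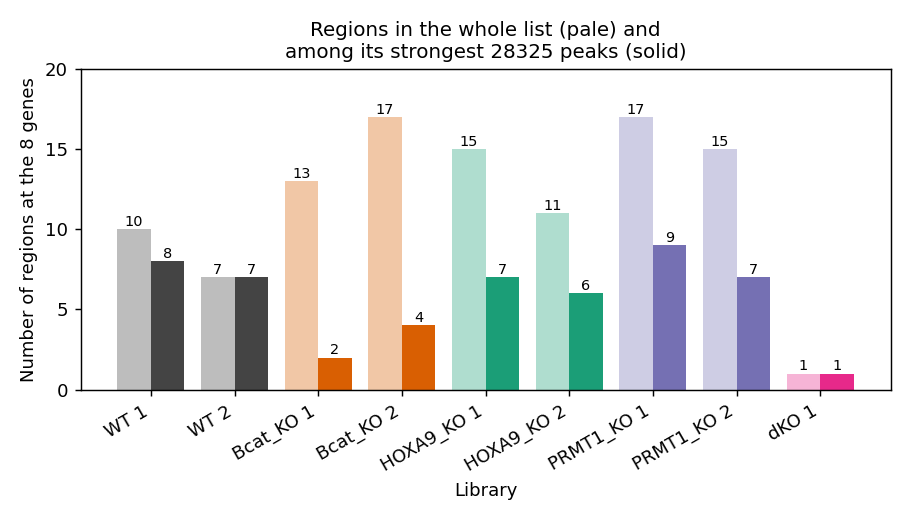
Number of regions at the 8 genes in each library (vertical axis), in the list as deposited (pale bars) and among its strongest 28325 peaks (solid bars). Bcat_KO falls from 13 and 17 to 2 and 4, and WT from 10 and 7 to 8 and 7.

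Counted by group, 5 of the 16 regions in the shortened lists were in both libraries of WT (45.3% of all 47984 regions were), 1 in both of Bcat_KO (48.1%), 4 in both of HOXA9_KO (48.5%) and 5 in both of PRMT1_KO (49.3%). The region of Bcat_KO was the upstream Mitf start, which the 4 groups share. In WT the others were those of Mitf at 13.8, 22.2 and 50.8 kb and of Hdc at 16.3 kb. In HOXA9_KO they were the start and the distant region of Cpa3 and the nearer region of Ms4a2. In PRMT1_KO they were the regions of Mitf at 22.2 and 189 kb, of Hdc at 16.3 kb and of Ms4a2 at 3.8 kb. The 4 groups thus shared the Mitf start, and WT and PRMT1_KO also shared Mitf at 22.2 kb and Hdc at 16.3 kb. Those 2 regions had a peak in all 8 paired libraries in the full lists. Each of the other regions named here was in both shortened lists of 1 group only.

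Against WT, a region was counted for a group when it was in the shortened lists of both its libraries and of neither library of the other group. Against Bcat_KO, 1 region was counted for WT, Mitf at 50.8 kb (3.46% of all regions were counted this way), and 0 for Bcat_KO (4.31%). Both Bcat_KO libraries had peaks at that site, of higher fold than in WT, just outside the shortened lists. Against HOXA9_KO, 3 regions were counted for WT, all inside Mitf, at 13.8, 22.2 and 50.8 kb (4.03%), and 1 for HOXA9_KO, the Cpa3 start (5.2%). At 22.2 kb both HOXA9_KO libraries and at 50.8 kb replicate 1 had weaker peaks outside the shortened lists, and at 13.8 kb neither had one. Against PRMT1_KO, 0 were counted for WT (3.19%), and PRMT1_KO had 1 of its own, Mitf at 189 kb (4.12%). The 3 comparisons share the WT libraries. With the stricter rule that a region be among the strongest 14162 peaks of both libraries of its group, the count was 0 in each of these comparisons. Of all regions, 0.0813% for Bcat_KO, 0.156% for HOXA9_KO and 0.0688% for PRMT1_KO were then of WT only, and 0.263%, 0.436% and 0.183% of the mutant only. With 2 libraries against 2 an exact permutation test cannot give a p below 0.333, so none is given.

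Between mutants, Bcat_KO had 0 regions of its own against HOXA9_KO (3.03% of all regions) and against PRMT1_KO (2.36%). HOXA9_KO had 2 against Bcat_KO (3.22%), at Ms4a2 2.2 kb past the gene and at Cpa3 17.5 kb past it. PRMT1_KO had 2 against Bcat_KO (2.62%), at Ms4a2 3.8 kb past the gene and at Mitf 189 kb from its start. Between HOXA9_KO and PRMT1_KO, the former had the same regions of Ms4a2 and Cpa3 as its own (2 regions, 4.43% of all regions), and the latter had Mitf at 22.2 and 189 kb (2 regions, 5.04%). At most of these sites the group without a call had weaker peaks in the full lists, as the values above show.

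Other genes of these lineages were counted in 4 lists. Over all protein-coding genes 21.5% had no peak, and 45.3% to 49.3% of all regions were in both libraries of a group. For granule and lipid mediator genes of mast cells, 6 of 13 genes had a region. Srgn, which encodes the granule proteoglycan serglycin, had 14, and the proteases Cma1, Mcpt1, Mcpt2, Mcpt4, Mcpt9, Tpsb2 and Tpsg1 had 0. Of their 16 regions in the shortened lists, WT, Bcat_KO and HOXA9_KO each had 6 in both libraries and PRMT1_KO had 8. For receptor and signalling genes, 11 of 14 genes had regions, and the numbers for WT, Bcat_KO, HOXA9_KO and PRMT1_KO were 17, 19, 14 and 23 of 46. Lyn, a Src family kinase gene downstream of the receptor, had 22 regions, and Kit, the stem cell factor receptor, had 10. For the eosinophil genes, all 9 had regions, and the numbers in the same order were 6, 6, 4 and 8 of 20. For the 12 transcription factor genes they were 22, 24, 23 and 23 of 58, with 10 regions at Gata2 and 11 at the Mitf relative Tfec. Over the 4 lists together PRMT1_KO had 44.3% of 140 regions in both libraries, Bcat_KO 39.3%, WT 36.4% and HOXA9_KO 33.6%, each below the share of all regions. In none of the 4 lists was the number lower in Bcat_KO than in WT. The 8 genes were chosen partly for few peaks in Bcat_KO, so a contrast between them and these lists is partly set by that choice and was not tested.

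Regions of 1 side only were counted in these lists by the same rule. Against Bcat_KO, WT had 1 such region among the granule genes, 1 among the receptor genes, 1 among the eosinophil genes and 0 among the factors, and Bcat_KO had 2, 3, 1 and 4. Against HOXA9_KO, WT had 1, 1, 2 and 0 and HOXA9_KO 0, 1, 0 and 2. Against PRMT1_KO, WT had 1, 0, 0 and 1 and PRMT1_KO 2, 3, 1 and 2. Of the 140 regions, 7.14% were of Bcat_KO only (4.31% of all regions), 2.14% of HOXA9_KO only (5.2%) and 5.71% of PRMT1_KO only (4.12%). Those of WT only were 2.14% against Bcat_KO (3.46%), 2.86% against HOXA9_KO (4.03%) and 1.43% against PRMT1_KO (3.19%). Hpgds, a prostaglandin D synthase gene, had a region of WT only against each of the 3 mutants. Enpp3 and Ear2 had one against Bcat_KO, Lyn, Ear1 and Ear2 against HOXA9_KO, and Gata2 against PRMT1_KO. Ear1 and Ear2 had the same highest fold in WT replicate 2 (8.37) and in PRMT1_KO replicate 1 (9.98). Whether these 2 genes share reads or a region was not tested. Regions of Bcat_KO only included 2 at Srgn and 2 at Stat5b, those of HOXA9_KO lay at Cd200r3, Stat5b and Id2, and those of PRMT1_KO included 2 at Srgn and 2 at Lyn.

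The number of peaks at the 8 genes per shortened list was most like that of Gng2 (Pearson r = 0.955), Scn3a (0.916) and Optc (0.912) across the 8 libraries, among 3450 genes with at least 4 regions. The counts of Gng2 were 5 and 6 in Bcat_KO, 8 and 7 in WT, 7 and 7 in HOXA9_KO and 9 and 7 in PRMT1_KO. The coefficients describe 8 libraries that differ in depth, and were picked as the highest of these 3450 genes. The 8 genes were chosen partly for few peaks in Bcat_KO, so a likeness to other genes with few peaks there is partly set by that choice.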

How the data were processed

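ATAC-seq peak lists of 9 libraries were used, each from 50000 LSK cells per the labels' protocols. The submitters' processing notes name Bowtie2 2.4.2, SAMtools 1.14, Picard 2.27.4, MACS2 and the build GRCm38/mm10, and the deposited peaks form 1 list per library. The deposited fold is a ratio of summit pileup to local background, the −log10 p and −log10 q were deposited with each peak, and the deposited score is 10 times the −log10 q as a whole number. None of these is normalized between libraries. Fold and p gave the reads at a summit, whole within 0.02.

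Genes and start-site windows came from RefSeq tables on GRCm38.p6, which matched 8 and 7 of the 8 symbols. The members, lists and call rules were chosen with earlier results of these data known. Described regions are the strongest of a gene or those of 1 group only. No genome sequence was used here, so motifs were searched in start-site windows in place of peaks, a choice made after the files were seen. Scripts (Python 3.11.15, pandas 2.3.3, scipy 1.17.1) were tested on simulated data. No test across regions was run. The result of 1 marker gene is not reported here. Alternatives were the full lists, a −log10 q of at least 5, another overlap, 10 kb, ranking by fold, a stricter call and leaving out each library.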

Additional observations from a re-analysis of the deposited data

How the results depend on the processing

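The counts of weak regions depended on the list length, and the upstream Mitf start did not. With all peaks as deposited, regions in both libraries numbered 9 in Bcat_KO, 10 in HOXA9_KO and 12 in PRMT1_KO. Regions of WT only were then 0 against Bcat_KO and 1 against HOXA9_KO, and PRMT1_KO had 4, HOXA9_KO 3 and Bcat_KO 2 that WT lacked. With a −log10 q of at least 5, WT and Bcat_KO each had 2 regions in both libraries, and HOXA9_KO and PRMT1_KO each had 6. Regions of WT only were 0 against Bcat_KO and 1 against HOXA9_KO, and HOXA9_KO and PRMT1_KO had 2 each of their own. Ranked by fold, Bcat_KO had 2 regions in both libraries, WT lost its 1 region against it (0), and PRMT1_KO had 0 of its own. Under the stricter call, the counts above 0 (WT only against Bcat_KO and HOXA9_KO, and HOXA9_KO and PRMT1_KO only) all became 0. With every list cut to the 10639 peaks of the dKO, an alternative chosen after seeing the data, 1 region was left in each of WT, Bcat_KO, HOXA9_KO and PRMT1_KO, so the 4 groups had equal counts. Joining peaks by 50% overlap and the distance of 10 kb moved no count by more than 1.5 times.

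Leaving out 1 library let the other stand for its group, so each count could only stay or rise by this rule. Counts per group then ranged from 7 to 8 in WT, 2 to 4 in Bcat_KO, 6 to 7 in HOXA9_KO and 7 to 9 in PRMT1_KO. Regions of WT only ranged from 2 to 4 against Bcat_KO, from 3 to 4 against HOXA9_KO and from 0 to 2 against PRMT1_KO. Regions of the mutant only ranged from 0 to 1 in Bcat_KO, were 2 each time in HOXA9_KO, and ranged from 1 to 3 in PRMT1_KO. Counts per group moved by over 1.5 times without WT replicate 2 (8), Bcat_KO replicate 1 (4), Bcat_KO replicate 2 (2), HOXA9_KO replicate 2 (7) and PRMT1_KO replicate 2 (9). Regions of WT only against Bcat_KO became 3 and 4 without WT replicates 1 and 2, and 2 and 3 without Bcat_KO replicates 1 and 2, and Bcat_KO had 1 of its own without its replicate 1. HOXA9_KO had 2 of its own without any 1 of its 2 or the 2 WT libraries. Regions of WT only against PRMT1_KO became 2 without either WT library or PRMT1_KO replicate 1, and PRMT1_KO had 2 of its own without WT replicate 1 and 3 without either of its libraries. No paired analysis was possible because the labels name no animal, batch or pair that links libraries across groups. Depth limits all weak regions: 6 to 25 reads stand behind each, and a missing peak can mean a region not detectable at that depth.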
